A study of Homo sapiens with 6 samples.

Results

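The genes described here are 47 genes of the DNA damage response and of DNA repair, followed in LNCaP cells, an androgen-responsive human prostate cancer cell line, during exposure to dihydrotestosterone (DHT), a natural androgen. They were chosen by name from the textbook repair pathways, with earlier results of these data known. All 47 were found among the 17990 genes of the count table. Genes with an average of 20 or more counts per library are called measured, and these were 11916 genes, all 47 repair genes among them. Before the hormone was added, the cells of every group had been kept in charcoal-stripped, hormone-depleted serum, so that the untreated cells also lacked androgen. The groups were untreated LNCaP cells (0 h) and LNCaP cells with 10 nM DHT for 3, 6, 12, 24 or 48 h, with 1 library of total RNA each and 6 in all.

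Cells meet DNA damage with sensor complexes and kinases that signal it, and with repair pathways that each deal with one kind of lesion. Homologous recombination and non-homologous end joining mend double-strand breaks, the Fanconi anemia pathway removes links between strands, base excision repair replaces damaged bases, mismatch repair corrects copying errors, and nucleotide excision repair cuts out bulky lesions such as those left by ultraviolet light. Several of the genes, among them BRCA1, BRCA2 and ATM, are known in prostate cancer as sites of inherited or acquired loss, and androgen signalling has been linked to the control of repair genes in this tissue.

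The libraries held between 13179917 and 20587956 counts, the highest total being that of 24 h, and a count of 0 allows a level of up to 0.146 to 0.228 CPM, where CPM is the count scaled to a total of 1000000 in each library. Each group being 1 library, nothing could be compared with the variation between replicates, and p-values are not given. Intervals in brackets are exact 95% intervals of the ratio of CPM values and cover counting error only. The 12 h library stood apart: 389 measured genes of chromosome 4 had a median log2 change of -2.14 there and 165 genes of distal chromosome 15 one of -2.76, against 0.08 for the genes of the other known chromosomes. The 12 h values of BLM and FANCI, both on distal chromosome 15, were therefore not used, which left 45 repair genes at that time. The androgen-induced protease gene KLK3 went from 4727 CPM at 0 h to 11949.9 CPM at 48 h and TMPRSS2 from 404 to 4554 CPM. All 6 markers of LNCaP cells were detected in each library, with a summed level of 7512 CPM at 0 h and 20928.5 CPM at 48 h and KLK3 the highest of them. They did not move as one: at 48 h KLK3, KLK2, TMPRSS2 and STEAP2 were above 0 h and FOLH1 (log2 change -0.87) and HOXB13 (-0.97) below it, and at 24 h FOLH1 was at -1.84. The 5 fibroblast markers summed to between 32.1 and 70.0 CPM, nearly all of it COL1A1, with 1 to 3 of them at 0. The 5 leukocyte markers summed to between 0.243 and 0.807 CPM, with 1 to 3 at 0. In such bulk RNA a change in the number of cells of one kind and a change of RNA per cell cannot be told apart.

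A repair gene was called higher or lower when log2((CPM + 1) / (CPM at 0 h + 1)) was at least 1 in size, a fixed rule of 2-fold that understates the change of genes at a low level. At 3 h 0 of the 47 genes were higher and 0 lower, against 0.747% and 0.864% of all measured genes. At 6 h 12 of 47 were higher (25.5%, against 15.3% of all measured genes) and 0 were lower (against 3.01%). At 12 h 7 of 45 were higher (15.6%, against 11.6%) and 0 were lower (against 3.86%). At 24 h 3 were higher (6.38%, against 10.5%) and 3 were lower (6.38%, against 10.8%). At 48 h 9 were higher (19.1%, against 15%) and 3 were lower (6.38%, against 7.33%). The median log2 change of the repair genes was 0.03, 0.27, 0.38, -0.01 and 0.13 at 3, 6, 12, 24 and 48 h, beside -0.08, 0.08, 0.08, -0.09 and -0.06 over all measured genes. At 24 h the split depended on how the libraries were scaled: with median-of-ratios or TMM factors, which moved the median of all genes by 0.15 or 0.18 at that time, 5 were higher and 2 lower in either case. All measured genes then had 13.7% higher and 8.21% lower with the first, and 14.4% and 7.91% with the second. ATM (1.14 with TMM factors) and ERCC4 (1.06) then joined the genes past 2-fold, and ERCC1 (-0.93) left them.

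Over all times used, 13 genes were past 2-fold higher at some time (27.7%, against 20.7% of all measured genes) and 4 past 2-fold lower (8.51%, against 13.8%), and none was both. The 13 were ATM, ATR, NBN, RAD50, MRE11A, TOPBP1, BRCA1, BRCA2, RAD54B, FANCL, LIG4, XRCC4 and ERCC4. The 4 were APEX1, PMS2, ERCC1 and DDB2. ATR, RAD54B and LIG4, 3 of the 47 (6.38%, against 6.89% of all measured genes), were higher at each time from 6 h on. The other 30 genes ranged from -0.92 to 0.97 at all times used. Just inside the 2-fold rule were ATM at 12 h (1.08), ERCC4 at 6 h (1.06), XRCC4 at 6 h (1.04) and FANCL at 48 h (1.01). Just outside it were POLB at 12 h (0.97) and 6 h (0.95), RAD50 at 3 h (-0.96), ATM at 24 h (0.96), TOPBP1 at 12 h (0.95), BRCA1 at 48 h (0.94) and BLM at 6 h (0.92).

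Smaller differences were beyond counting error for many of the repair genes, as for many genes of the table. The interval of the ratio to 0 h lay above 1 at every time used from 6 h on in 15 genes (31.9%, against 28.1% of all measured genes): ATM, ATR, TOPBP1, RAD50, NBN, RAD51C, RAD54B, FANCL, XRCC4, LIG4, PARP2, POLB, ERCC4, ERCC5 and XPA. It lay below 1 at all these times in 11 (23.4%, against 24.8%): XRCC3, FANCG, PRKDC, PARP1, APEX1, UNG, PMS2, ERCC1, ERCC2, DDB1 and DDB2. BRCA1 and BRCA2 are in neither group because their intervals at 24 h held 1. At 3 h the interval lay below 1 in 12 genes (25.5%, against 33.6%) and above 1 in 9 (19.1%, against 19.4%). Such intervals leave out the variation between cultures, which 1 library per time cannot show. Reads of neighbours may add to some of the counts: in GENCODE v29, 15 of the 47 genes share at least 10% of their exonic bases with another gene. Those shares are given below for the called genes and for some of the others.

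**Figure D1:**
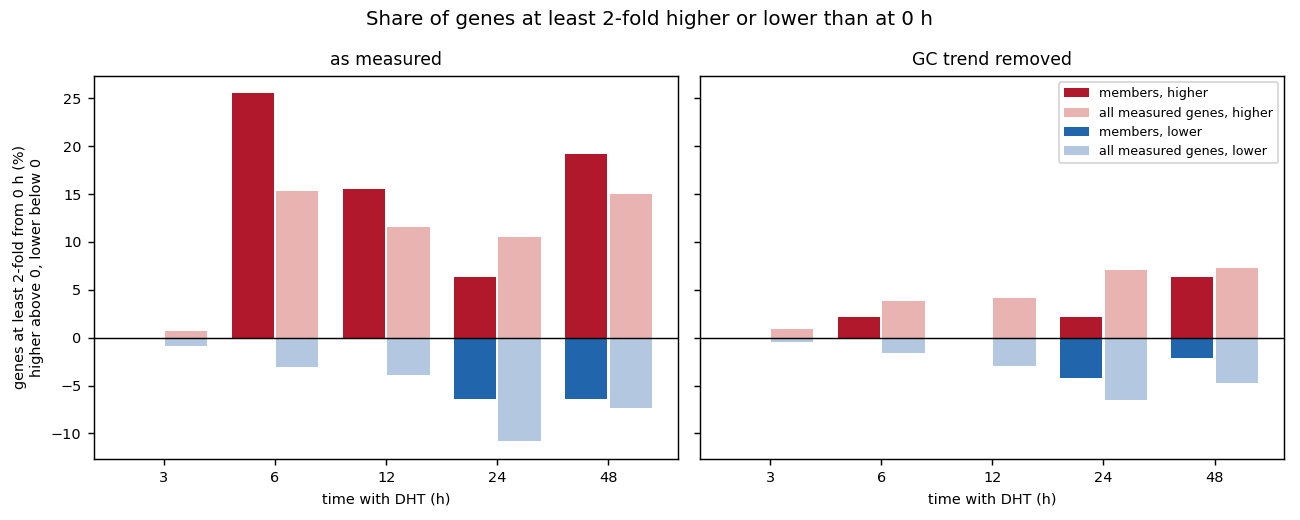
Share of genes at least 2-fold higher (bars above 0) or lower (bars below 0) than at 0 h, in percent, for the repair genes (dark) and all measured genes (pale), by time with DHT, as measured on the left and with the trend on GC content removed on the right. The repair genes reached 25.5% higher at 6 h against 15.3% of all measured genes, and with the trend removed their bars were below those of all measured genes at every time.

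The changes went with the base composition of the transcripts. Across the repair genes, the log2 change had a Pearson correlation with the GC content of the transcript of 0.46 at 3 h, -0.82 at 6 h, -0.82 at 12 h, -0.74 at 24 h and -0.75 at 48 h (47 genes, 45 at 12 h), values that share the 0 h library. Over all measured genes with a GC value it was 0.23, -0.74, -0.62, -0.52 and -0.56. The 13 genes that were higher at some time had a median GC content of 39.1% (35.7 to 41.9%), the 4 lower genes one of 52.4% (46.2 to 56.1%) and the other 30 one of 48.2%, beside 49.5% over all measured genes. Each of the 13 thus lay below every one of the 4.

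For this reason the log2 changes against 0 h described gene by gene below are also given in a second form, called the GC-adjusted change. It is the log2 change after subtraction of the curve of log2 change on GC content over all measured genes. After this adjustment the repair genes had 0 higher and 0 lower at 3 h, against 0.926% and 0.424% of all measured genes. They had 1 higher and 0 lower at 6 h (against 3.79% and 1.56%), and 0 and 0 at 12 h (against 4.14% and 2.93%). At 24 h there were 1 higher and 2 lower (against 7.08% and 6.54%), and at 48 h 3 higher and 1 lower (against 7.23% and 4.78%). The GC-adjusted medians of the repair genes were 0.08, 0.06, 0.07, -0.10 and -0.13 in the order of time. The genes past 2-fold in both forms were RAD54B at 6 h, LIG4, PMS2 and DDB2 at 24 h, and ATR, RAD54B, LIG4 and PMS2 at 48 h. What lies behind this relation was not tested.

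**Figure D2:**
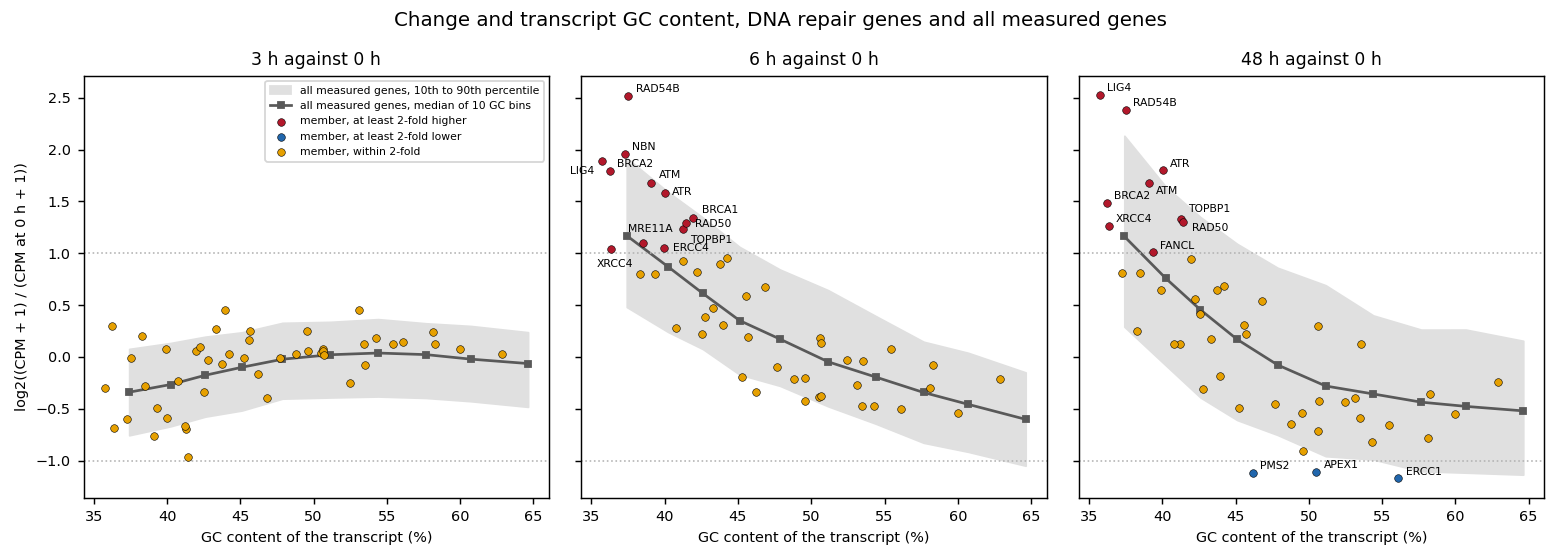
Log2 change against 0 h (vertical axis) by GC content of the transcript in percent (horizontal axis) at 3, 6 and 48 h, 1 point per repair gene, red if at least 2-fold higher, blue if at least 2-fold lower and yellow otherwise, over the median (line) and the range from the 10th to the 90th percentile (grey) of all measured genes in 10 bins of GC content. The red points at 6 and 48 h all lie at or below 41.9% GC, where the line of all genes is high as well, and RAD54B and LIG4 are the highest points at 48 h.

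Promoters are shown for LIG4 and ATR, past 2-fold higher at 48 h also after GC adjustment. They are also shown for DDB2, past 2-fold lower at 24 h only, and for APEX1, past 2-fold lower at 48 h only. After GC adjustment DDB2 was still past 2-fold lower at 24 h (-1.20), and APEX1 at 48 h was not (-0.90). Each window of 300 bases begins upstream of the annotated start of the gene and ends shortly after it, in the direction of the gene, from RefSeq on GRCh38.p14, with matches to the motifs named below in capitals.
LIG4 (chr13:108218300-108218599, minus strand): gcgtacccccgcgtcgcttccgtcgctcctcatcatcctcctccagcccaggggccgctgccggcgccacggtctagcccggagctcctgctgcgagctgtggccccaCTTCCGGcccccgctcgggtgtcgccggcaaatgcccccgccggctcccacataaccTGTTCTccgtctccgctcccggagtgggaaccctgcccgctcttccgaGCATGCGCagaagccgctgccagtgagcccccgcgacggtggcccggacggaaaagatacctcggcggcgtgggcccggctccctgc
ATR (chr3:142578684-142578983, minus strand): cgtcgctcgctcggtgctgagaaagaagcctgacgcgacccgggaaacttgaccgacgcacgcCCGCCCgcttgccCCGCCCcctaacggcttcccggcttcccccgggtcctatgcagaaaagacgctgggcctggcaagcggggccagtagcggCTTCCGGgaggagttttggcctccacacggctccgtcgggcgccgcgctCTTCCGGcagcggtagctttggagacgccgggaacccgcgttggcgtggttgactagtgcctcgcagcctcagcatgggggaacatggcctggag
DDB2 (chr11:47214204-47214503, plus strand): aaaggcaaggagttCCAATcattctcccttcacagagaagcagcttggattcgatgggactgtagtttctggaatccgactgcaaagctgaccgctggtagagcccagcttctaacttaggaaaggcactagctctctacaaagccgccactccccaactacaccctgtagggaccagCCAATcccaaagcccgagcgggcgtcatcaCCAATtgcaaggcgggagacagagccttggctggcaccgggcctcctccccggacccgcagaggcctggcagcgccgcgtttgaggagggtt
APEX1 (chr14:20454976-20455275, plus strand): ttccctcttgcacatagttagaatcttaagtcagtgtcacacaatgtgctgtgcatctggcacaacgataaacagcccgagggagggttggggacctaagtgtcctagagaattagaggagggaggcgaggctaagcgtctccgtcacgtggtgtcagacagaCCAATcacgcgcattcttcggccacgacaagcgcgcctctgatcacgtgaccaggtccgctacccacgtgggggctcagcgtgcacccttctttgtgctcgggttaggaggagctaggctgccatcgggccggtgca
In LIG4 the capitals mark a match to the ETS motif (CCGGAAG, here on the other strand), one to the NRF1 motif (GCGCATGC, likewise) and one to a steroid receptor half-site (AGAACA, likewise). In ATR they mark 2 ETS and 2 SP1 (GGGCGG) matches on the other strand, and in DDB2 and APEX1 the NF-Y box (CCAAT), 3 times and 1 time.

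Promoter entries were found for 41 of the 47 genes, and each motif was searched on both strands in these windows of 300 bases. The ETS motif was in 8 of the 11 promoters of genes that were higher at some time (72.7%: ATM, ATR, BRCA2, ERCC4, LIG4, MRE11A, RAD50 and XRCC4), in 0 of the 4 of genes that were lower, and in 13 of all 41 (31.7%). It was in 19.8% of 9548 promoters of measured genes and in 10.3% of 35116 promoters in all. The E2F motif (TTTCCCGC or TTTGGCGC) was in 6 of the 41 (14.6%, against 3.79% of measured genes and 2.27% of all), none of them a gene past 2-fold higher or lower. The NF-Y box was in 18 of the 41 (43.9%, against 37.2% and 34.6%), 3 of them among the 4 lower genes and 3 among the 11 higher ones. SP1 was in 32 (78.0%, against 70.5% and 45.0%), NRF1 in 4 (9.76%, against 5.68% and 3.05%) and the steroid receptor half-site in 6 (14.6%, against 8.85% and 14.8%). Among the 11 higher and the 4 lower genes, SP1 was in 7 and 1, NRF1 in 1 and 0, and the half-site in 2 and 0. The promoters of the 11 higher genes had a median GC content of 63.3% and those of the 41 one of 63.7%, while the transcripts of the higher genes were low in GC. These matches are descriptions of letters and not of binding.

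**Figure D3:**
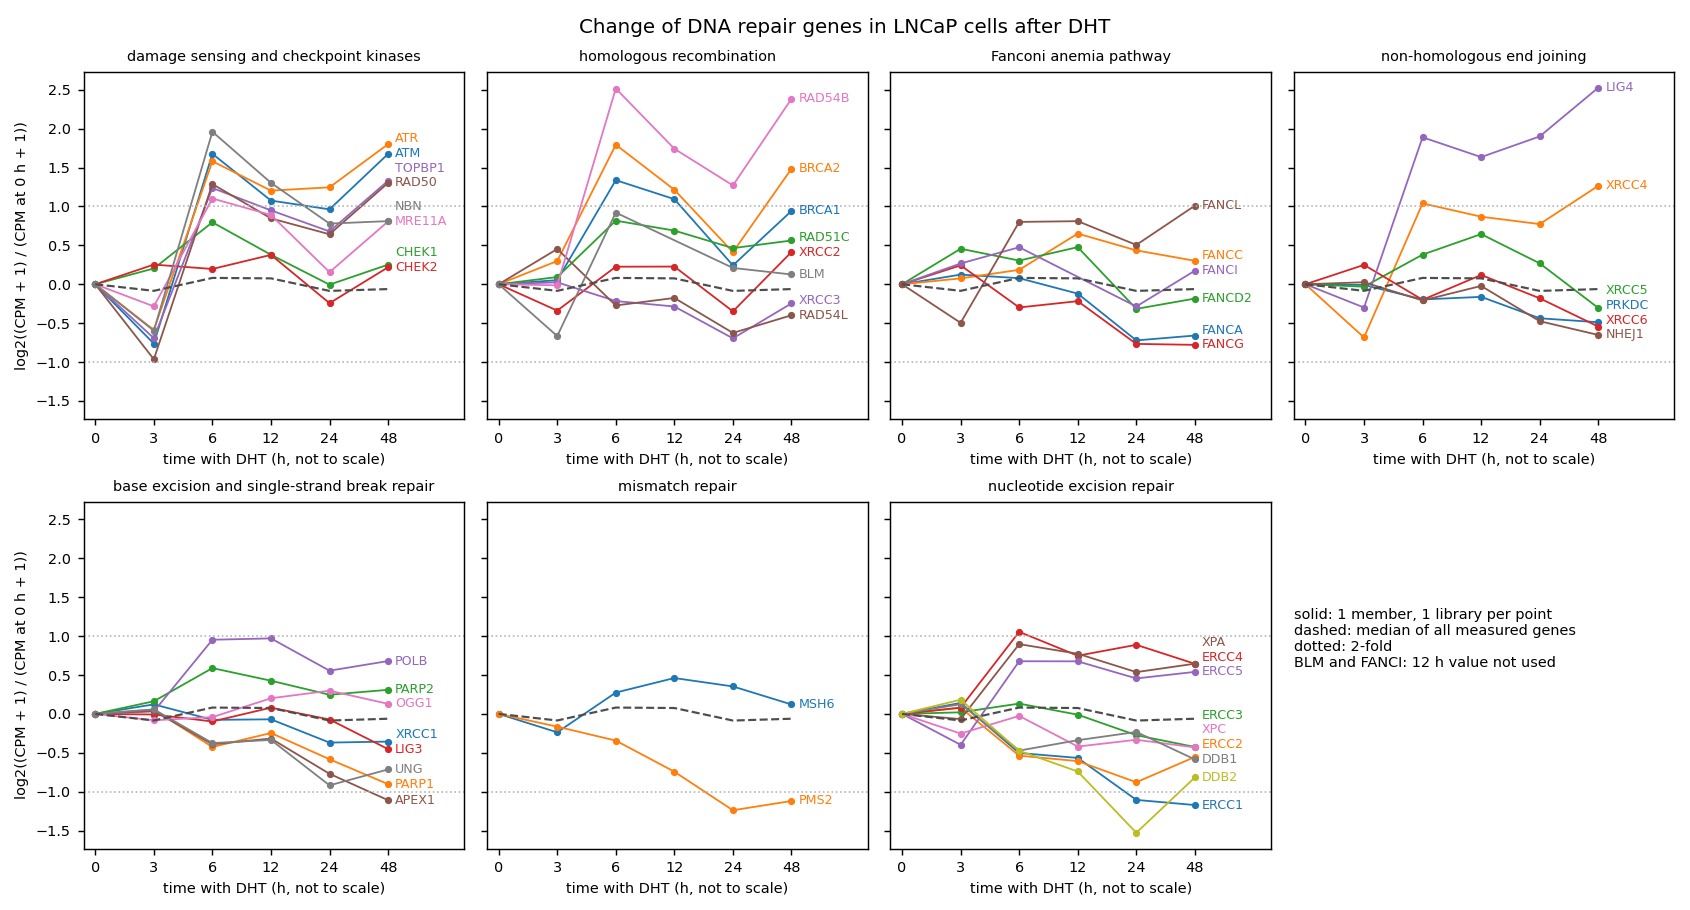
Log2 change against 0 h (vertical axis) by time with DHT (horizontal axis, not to scale) for each of the 47 repair genes, 1 panel per pathway and 1 library per point, with the median of all measured genes (dashed) and the 2-fold lines (dotted). Most sensing genes and RAD54B, BRCA2, LIG4 and XRCC4 turn upward between 3 and 6 h, and PMS2, ERCC1 and DDB2 fall below the lower line at 24 h.

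The 8 genes of damage sensing and checkpoint signalling held the most calls. At 6 h 6 of the 8 were higher (ATM, ATR, NBN, RAD50, MRE11A and TOPBP1), at 12 h 3, at 24 h 1 and at 48 h 4, and none was lower at any time. Of all measured genes 15.3%, 11.6%, 10.5% and 15% were higher at these times, and 13.8% were lower at some time. After GC adjustment 0 of the 8 were higher at 6, 12 and 24 h and 1, ATR, at 48 h. The GC-adjusted shares of all measured genes higher at these times were 3.79%, 4.14%, 7.08% and 7.23%. Their median log2 change was -0.59 at 3 h, 1.26 at 6 h, 0.92 at 12 h, 0.66 at 24 h and 1.06 at 48 h, and GC-adjusted it was -0.29, 0.51, 0.24, 0.11 and 0.40.

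ATM, the kinase that signals double-strand breaks (chromosome 11), stood at 24.5 CPM in untreated cells and at 14.03, 80.5, 52.8, 48.7 and 80.5 CPM at 3, 6, 12, 24 and 48 h. The 3 h library was thus the lowest of the 6, and those at 6 and 48 h were the highest. At 6 h the level was 3.29 times that at 0 h (2.90 to 3.73), a log2 change of 1.68 that was 0.68 after GC adjustment. ATR, the kinase that answers single-stranded DNA at stalled forks (chromosome 3), went from 19.3 to 12.5, 59.9, 45.9, 47.3 and 69.9 CPM. It was 3.61 times its 0 h level at 48 h (3.15 to 4.16, log2 change 1.80), and its GC-adjusted change of 1.01 was still past 2-fold. TOPBP1, which activates ATR, had 16.3, 9.71, 39.8, 32.4, 26.7 and 42.5 CPM, with log2 changes of 1.24 at 6 h and 1.33 at 48 h (GC-adjusted 0.48 and 0.71). Like ATM it was lowest at 3 h.

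Before GC adjustment the kinases' main targets moved less. CHEK1, activated by ATR, had 6.15, 7.23, 11.4, 8.29, 6.12 and 7.51 CPM, and its largest log2 change was 0.80 at 6 h, which turned to -0.28 after GC adjustment. GC-adjusted, CHEK1 was at 0.52 at 3 h and at -0.50, -0.70 and -0.78 at 12, 24 and 48 h. ATR was then at 0.46, 0.68 and 1.01 at 12, 24 and 48 h, so that after adjustment CHEK1 did not move less at every time. CHEK2, activated by ATM, ranged from 9.91 CPM at 24 h to 15.8 CPM at 12 h, with log2 changes between -0.24 and 0.38 (GC-adjusted -0.33 to 0.34); it has near-identical copies elsewhere in the genome, so its counts are uncertain. The count of ATM over that of CHEK2 was 2.06 (1.69 to 2.51) at 0 h, 0.975 at 3 h, 5.84 at 6 h and 5.74 (4.95 to 6.67) at 48 h. The count of ATR over that of CHEK1 was 3.15 (2.44 to 4.09) at 0 h, 1.74 at 3 h and 9.31 (7.66 to 11.4) at 48 h. These are ratios of counts that are not set per length, so that their size cannot be read. Their change is not GC-adjusted, and partners can differ in GC content, as ATM (39.1%) and CHEK2 (45.7%) do. The same holds for the count ratios of the pairs below.

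The MRN complex, which binds broken ends and recruits ATM, is made of the products of MRE11A (now MRE11), RAD50 and NBN. NBN had 13.1, 8.29, 53.7, 33.7, 23.1 and 23.7 CPM, with the 6 h library far above the others. That was 4.11 times the 0 h level (3.48 to 4.89), a log2 change of 1.96, GC-adjusted 0.79. RAD50 had 21.5, 10.6, 54.1, 39.6, 34.2 and 54.6 CPM, 0.490 times the 0 h level at 3 h (0.399 to 0.599) and 2.54 times at 48 h (2.21 to 2.91). Its log2 changes were -0.96 at 3 h, 1.29 at 6 h and 1.30 at 48 h, and -0.74, 0.55 and 0.70 GC-adjusted. MRE11A had 9.71, 7.79, 22.0, 18.9, 10.9 and 17.7 CPM, past 2-fold at 6 h only (log2 change 1.10, and 0.05 GC-adjusted). The 3 subunits did not keep their proportions: the count of NBN over that of MRE11A was 1.34 at 0 h, 2.44 (2.13 to 2.80) at 6 h and 1.33 (1.13 to 1.57) at 48 h, whereas RAD50 over MRE11A was 2.22 at 0 h, 2.46 at 6 h and 3.08 (2.68 to 3.55) at 48 h. Exons of RAD50 share 90.6% of their bases with other annotated genes in GENCODE v29, on the same strand or the opposite one, so that its counts may hold reads of those genes.

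Of the 8 genes of homologous recombination, 3 were higher at 6 h (BRCA1, BRCA2 and RAD54B), 3 of 7 at 12 h, 1 at 24 h and 2 at 48 h, and none was lower. Of all measured genes the same 15.3%, 11.6%, 10.5% and 15% were higher, and 13.8% were lower at some time. After GC adjustment 1 was higher at 6 h and 1 at 48 h, RAD54B in both cases, and 0 at 12 and 24 h. The GC-adjusted shares of all measured genes higher were 3.79%, 4.14%, 7.08% and 7.23% at 6, 12, 24 and 48 h. BRCA1, which directs breaks to this pathway (chromosome 17), had 7.89, 8.22, 21.5, 17.98, 9.52 and 16.1 CPM. It was 2.72 times its 0 h level at 6 h (2.17 to 3.44, log2 change 1.34, GC-adjusted 0.65) and 1.21 times at 24 h (0.946 to 1.55). BRCA2, which loads the strand-exchange filament (chromosome 13), had the lowest level per length of all 47 genes at 0 h, 0.104 CPM per kilobase of transcript. Its levels were 1.14, 1.63, 6.41, 3.96, 1.85 and 4.98 CPM, high at 6, 12 and 48 h and low at 0, 3 and 24 h. The ratio to 0 h was 5.63 at 6 h, with a wide interval (3.23 to 10.5), and 4.38 at 48 h (2.49 to 8.21). Its log2 changes of 1.79, 1.21 and 1.48 at 6, 12 and 48 h were 0.52, 0.19 and 0.20 after GC adjustment, short of 2-fold at each. From 24 to 48 h BRCA2 rose 2.70 times (1.80 to 4.10).

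RAD54B, a helicase-like motor of strand exchange (chromosome 8), had 2.66, 2.62, 19.9, 11.2, 7.82 and 18.1 CPM. The libraries of 0 and 3 h were the lowest and those of 6 and 48 h the highest. The ratio to 0 h was 7.50 at 6 h (5.26 to 10.99) and 6.81 at 48 h (4.78 to 9.98), log2 changes of 2.52 and 2.38, or 1.37 and 1.26 GC-adjusted. Its paralog RAD54L had 13.8, 19.3, 11.3, 12.1, 8.60 and 10.2 CPM, with log2 changes from -0.63 at 24 h to 0.45 at 3 h (GC-adjusted -0.35 and 0.44). The count of RAD54B over that of RAD54L was 0.192 (0.130 to 0.277) at 0 h, 1.77 (1.44 to 2.17) at 6 h, 0.910 (0.730 to 1.13) at 24 h and 1.77 (1.44 to 2.17) at 48 h. Exons of RAD54B share 63.3% of their bases with FSBP, a gene on the same strand, and counts of the 2 genes may mix.

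The recombination genes that stayed within 2-fold were spread to both sides. XRCC3, a paralog of the strand-exchange recombinase, had 68.7, 69.9, 59.0, 56.1, 42.0 and 57.8 CPM, lowest at 24 h (log2 change -0.70, GC-adjusted -0.09). Its exons share 45.4% of their bases with KLC1 on the opposite strand. RAD51C, of the same family, went from 17.7 CPM at 0 h to 31.9 CPM at 6 h (log2 change 0.82, GC-adjusted 0.16), and XRCC2 stayed between 2.53 and 4.98 CPM. BLM, the helicase lost in Bloom syndrome, had 2.05, 0.921, 4.77, 2.53 and 2.33 CPM at 0, 3, 6, 24 and 48 h, and its ratio of 2.33 at 6 h (1.46 to 3.80) was a log2 change of 0.92, GC-adjusted 0.16.

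In the Fanconi anemia pathway 1 of 6 genes was past 2-fold at any time used, FANCL at 48 h. Of all measured genes 20.7% were higher and 13.8% lower at some time. FANCL, the ligase that attaches ubiquitin to FANCD2 and FANCI, had 5.01, 3.26, 9.47, 9.54, 7.53 and 11.1 CPM, lowest at 3 h and highest at 48 h. The 48 h ratio was 2.22 (1.66 to 2.99), a log2 change of 1.01 that was 0.12 after GC adjustment. Its exons share 26.7% of their bases with genes on the opposite strand. FANCG, a core complex subunit, had 38.5, 45.7, 31.1, 32.9, 22.2 and 22.0 CPM, and FANCA, another, had 37.1, 40.5, 39.2, 34.0, 22.1 and 23.1 CPM. For both the 24 and 48 h libraries were the lowest, with log2 changes of -0.77 and -0.78 in FANCG and -0.72 and -0.66 in FANCA. After GC adjustment these were -0.30 and -0.33, and -0.35 and -0.27. FANCC, of the same complex, was highest at 12 h (41.7 CPM, from 26.2 at 0 h, log2 change 0.65 with or without GC adjustment). FANCD2, which has near-identical copies and is uncertain for that reason, was highest at 12 h (39.0 CPM, from 27.8) and lowest at 24 h (22.1), and its partner FANCI was highest at 6 h (50.9 CPM, from 36.3) and lowest at 24 h (29.6). These highest values were log2 changes of 0.48 in both genes, GC-adjusted 0.07 in FANCD2 and -0.07 in FANCI. GC-adjusted, both genes were highest at 3 h (0.60 and 0.43) and lowest at 24 h (-0.54 and -0.56).

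In non-homologous end joining LIG4 and XRCC4, which form the ligase that seals the break, were the 2 of 6 genes past 2-fold, both higher. Of all measured genes 20.7% were higher and 13.8% lower at some time. LIG4 (chromosome 13) had 3.72, 2.83, 16.5, 13.6, 16.6 and 26.2 CPM. All libraries from 6 h on were above both earlier ones, and the 48 h library was the highest. The ratio to 0 h was 4.47 at 24 h (3.30 to 6.16) and 7.04 at 48 h (5.22 to 9.68), the largest at each of these times among the 47 genes on the log2 scale (1.90 and 2.53). After GC adjustment the changes were 1.03 and 1.18, past 2-fold, and at 6 and 12 h 0.57 and 0.58, short of it. XRCC4 (chromosome 5) had 1.52, 0.567, 4.18, 3.60, 3.30 and 5.05 CPM, that is 20, 8, 56, 49, 68 and 76 counts. Its log2 changes of 1.04 at 6 h and 1.27 at 48 h became -0.22 and -0.01 after GC adjustment.

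Before GC adjustment the other end-joining genes moved less than LIG4 and XRCC4. After it, at 48 h, XRCC4 (-0.01) had moved less than any of these others. PRKDC, the DNA-dependent kinase, had 613 CPM at 0 h and 437 CPM at 48 h, log2 change -0.49 (GC-adjusted -0.65), and NHEJ1, the XLF factor that stimulates ligase IV, went from 9.03 to 5.38 CPM (log2 change -0.65, GC-adjusted -0.53). The count of LIG4 over that of NHEJ1 was 0.412 (0.289 to 0.579) at 0 h and 4.86 (3.82 to 6.26) at 48 h. Exons of NHEJ1 share 62.35% of their bases with another gene on the same strand, and its counts may hold reads of that gene. XRCC5 and XRCC6 encode the Ku subunits, Ku80 and Ku70, that bind the break as a pair. XRCC5 had 362, 354, 471, 566, 436 and 293 CPM and XRCC6 341, 406, 297, 371, 301 and 234 CPM. Both were lowest at 48 h, but at 6 h XRCC5 stood above its 0 h level (ratio 1.30, 1.25 to 1.35) and XRCC6 below its own (0.870, 0.833 to 0.908). After GC adjustment both were below 0 h at 6 h, with log2 changes of -0.22 in XRCC5 and -0.27 in XRCC6. At 48 h the GC-adjusted changes were -0.73 in XRCC5 and -0.38 in XRCC6. The count of XRCC5 over that of XRCC6 was 1.06, 0.873, 1.59, 1.53, 1.45 and 1.25 in the order of time.

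**Figure D4:**
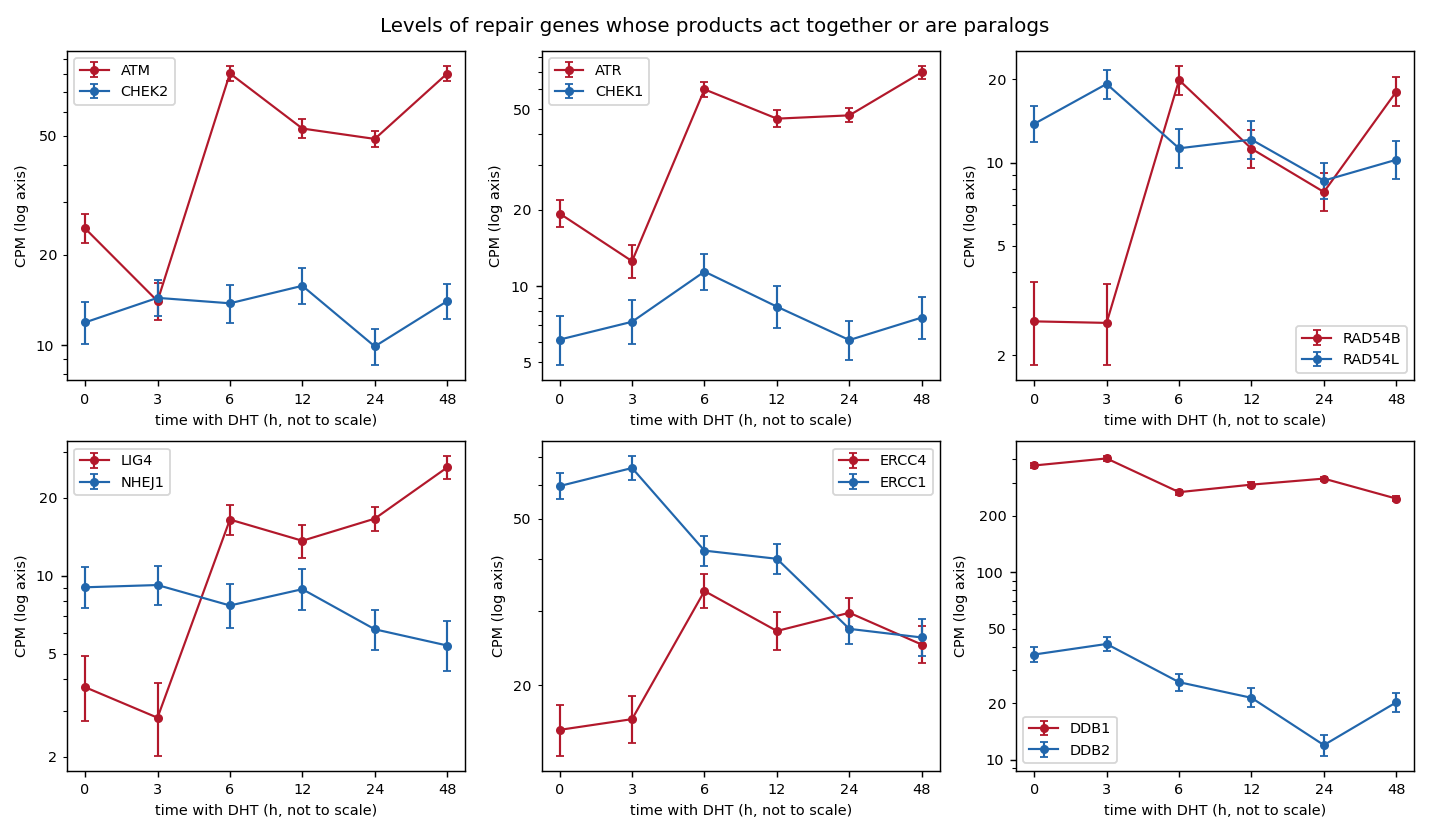
Level in CPM (vertical axis, log scale) by time with DHT (horizontal axis, not to scale) of 6 pairs of repair genes, 1 library per point, with bars for the exact 95% Poisson interval of the count, which covers counting error only. RAD54B is below RAD54L at 0 and 3 h, above it at 6 and 48 h and near it at 12 and 24 h. LIG4 is above NHEJ1 from 6 h on, ERCC4 is near ERCC1 at 24 and 48 h, and DDB2 is furthest below DDB1 at 24 h. The levels are neither GC-adjusted nor set per length, so that a crossing of lines says nothing of transcript numbers.

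Base excision and single-strand break repair had 1 call in its 8 genes, APEX1 at 48 h. Of all measured genes 20.7% were higher and 13.8% lower at some time. APEX1, the endonuclease that cuts at sites without a base (chromosome 14), was the most abundant of the 47 genes per length at 0 h, with 256 CPM per kilobase, followed by XRCC6 with 149, PARP1 with 110 and XRCC5 with 106. APEX1 had 368, 378, 281, 295, 215 and 170 CPM, lowest at 48 h. That was 0.462 times its 0 h level (0.440 to 0.485), a log2 change of -1.11, GC-adjusted -0.90. UNG, the glycosylase that removes uracil, had 57.0, 59.4, 43.7, 45.0, 29.7 and 34.4 CPM, and its log2 change of -0.92 at 24 h was short of 2-fold (GC-adjusted -0.75). PARP1, which marks strand breaks with poly(ADP-ribose), had 437, 454, 325, 368, 291 and 233 CPM, also lowest at 48 h (ratio 0.534, 0.512 to 0.557, log2 change -0.90, GC-adjusted -0.74).

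The remaining genes of that pathway did not move together. POLB, the gap-filling polymerase, had 14.2, 14.5, 28.4, 28.8, 21.3 and 23.3 CPM, and its ratios of 2.002 at 6 h (1.68 to 2.40) and 2.03 at 12 h (1.70 to 2.43) were log2 changes of 0.95 and 0.97 with the added 1 CPM, and 0.49 and 0.59 GC-adjusted. PARP2, the smaller relative of PARP1, had 24.2 CPM at 0 h, 36.9 at 6 h and 30.2 at 48 h, and the count of PARP2 over that of PARP1 was 0.0554 (0.0493 to 0.0620) at 0 h and 0.130 (0.117 to 0.143) at 48 h. OGG1, the glycosylase for oxidised guanine, was highest at 24 h with 80.4 CPM, from 65.2 at 0 h (log2 change 0.30, GC-adjusted 0.59). XRCC1 and its ligase LIG3 stayed within log2 changes of -0.37 to 0.12 and -0.45 to 0.08, or 0.09 to 0.29 and -0.41 to 0.04 GC-adjusted.

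Of the 2 mismatch repair genes, PMS2 was lower and MSH6 was not called, beside 13.8% of all measured genes lower at some time. PMS2, a subunit of the endonuclease of this pathway (chromosome 7), had 66.0, 58.8, 51.8, 39.0, 27.4 and 29.8 CPM. The 24 and 48 h libraries were the lowest, 0.415 (0.373 to 0.462) and 0.452 (0.402 to 0.507) times the 0 h level. Its log2 changes of -1.24 and -1.12 were -1.29 and -1.19 after GC adjustment, which makes it the one of the 4 lower genes whose decrease did not shrink with that step. PMS2 has near-identical pseudogene copies on the same chromosome, so that its counts may hold reads of those copies. MSH6, which recognises the mismatch, had 43.2, 36.5, 52.4, 59.8, 55.4 and 47.1 CPM, highest at 12 h, with a log2 change of 0.46 that turned to -0.22 after GC adjustment.

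Nucleotide excision repair had 1 gene of 9 higher (ERCC4 at 6 h) and 2 lower (ERCC1 and DDB2 at 24 h, ERCC1 also at 48 h). Of all measured genes 20.7% were higher and 13.8% lower at some time. DDB2, which finds ultraviolet lesions in chromatin (chromosome 11), had 36.3, 41.4, 25.9, 21.4, 11.9 and 20.2 CPM, and the 24 h library was the lowest by far. It was 0.329 times its 0 h level then (0.281 to 0.384), a log2 change of -1.53 that was the largest decrease among the 47 genes and was -1.20 after GC adjustment. At 48 h it was at -0.82 (GC-adjusted -0.46), or 1.69 times its level of 24 h (1.42 to 2.01). Its partner DDB1, which also serves in other ubiquitin ligases, had 371, 404, 267, 293, 316 and 247 CPM, with a log2 change of -0.23 at 24 h, GC-adjusted 0.06. The count of DDB1 over that of DDB2 was 10.2 (9.28 to 11.2) at 0 h, 26.4 (23.2 to 30.1) at 24 h and 12.2 (10.9 to 13.8) at 48 h.

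ERCC1 and ERCC4 encode the nuclease that cuts on the 5′ side of the lesion, ERCC4 (also called XPF) being its catalytic subunit. ERCC1 (chromosome 19) had 59.8, 66.0, 41.9, 40.1, 27.2 and 26.0 CPM, lowest at 24 and 48 h. Its ratio was 0.456 (0.408 to 0.509) at 24 h and 0.435 (0.384 to 0.491) at 48 h, log2 changes of -1.11 and -1.17, or -0.71 and -0.76 GC-adjusted. ERCC4 (chromosome 16) had 15.6, 16.6, 33.6, 26.9, 29.8 and 24.99 CPM, with each library from 6 h on above both earlier ones. It was past 2-fold at 6 h only (2.15, 1.82 to 2.54, GC-adjusted log2 change 0.15). The count of ERCC4 over that of ERCC1 was 0.261 (0.223 to 0.305) at 0 h, 0.801 at 6 h and 1.09 (0.973 to 1.23) at 24 h. GC-adjusted, ERCC4 was at 0.15 and ERCC1 at -0.23 at 6 h, and they were at 0.32 and -0.71 at 24 h. Exons of ERCC1 share 36.6% of their bases with CD3EAP, and those of ERCC4 24.3% with another gene, in both cases on the opposite strand.

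The other excision genes were within 2-fold. XPA, which verifies the lesion, had 9.03 CPM at 0 h and 17.7 CPM at 6 h (log2 change 0.90, GC-adjusted 0.39). ERCC5, the 3′ nuclease, had 20.9 CPM at 0 h, 34.1 CPM at 6 h and 34.0 CPM at 12 h (0.68 at both, GC-adjusted 0.43 and 0.47). Its exons share 64.36% of their bases with other annotated genes on the same strand. ERCC2, a helicase of TFIIH, was lowest at 24 h with 26.3 CPM, from 49.2 at 0 h (-0.88, GC-adjusted -0.36), while ERCC3, the other helicase of TFIIH, was lowest at 48 h with 61.3 CPM, from 82.7 (-0.43, GC-adjusted -0.20). XPC, the sensor of distorted DNA, ranged from 78.5 to 106 CPM.

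The steps between neighbouring times do not all rest on the 0 h library. These steps are not GC-adjusted. Over all measured genes the correlation of the change against 0 h with GC content was 0.23 at 3 h and -0.74 at 6 h. From 3 to 6 h 14 of 47 repair genes were at least 2-fold higher and 0 lower, against 20.9% and 1.40% of all measured genes. They were led by NBN (6.48 times, 5.32 to 7.94), RAD54B (7.59 times, 5.37 to 11.02) and ATM (5.74 times, 4.93 to 6.71), with log2 steps of 2.56, 2.53 and 2.44. From 24 to 48 h 2 were higher, RAD54B (log2 step 1.11) and BRCA2 (1.07), and 0 were lower, against 1.53% and 0.185% of all measured genes. ATM, ATR, NBN, RAD50, TOPBP1 and XRCC4 had a ratio interval below 1 at 3 h and were higher at 6 h, 6 of the 47 (12.8%, against 6.37% of all measured genes).

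Other genes of these pathways, 109 by name, were taken from textbook lists and not picked for how they moved, though earlier results of these data were known. Of the 109, 103 were found and 101 measured, and the other 6 were not analysed here. Of the 101, 0 were higher and 0 lower at 3 h, 25 and 0 at 6 h, 15 and 0 of 98 at 12 h, 10 and 8 at 24 h and 21 and 3 at 48 h, to be read beside the shares of all measured genes given above. Their median log2 change was -0.14, 0.40, 0.37, 0.03 and 0.24, beside the medians of all measured genes given above. After GC adjustment 3 were higher and 1 lower at 6 h, 2 and 2 at 24 h and 3 and 2 at 48 h. At both 24 and 48 h 9 were higher, and the 5 with the largest mean change over both times were POLK, a translesion polymerase (5.92 CPM at 0 h, 20.5 at 24 h and 38.6 at 48 h), the helicase gene RECQL (4.63, 14.1 and 27.4), the mismatch gene PMS1 (6.15, 16.2 and 28.4), SMC5, of the SMC5/6 complex (7.36, 18.1 and 32.7), and FANCM, a translocase of the Fanconi pathway (1.59, 4.61 and 9.97). The GC-adjusted log2 changes of these 5 were 0.37 to 0.70 at 24 h and 0.76 to 1.17 at 48 h. Of the other 4, which were USP1, POLI, PARG and WRN, PARG was past 2-fold at both times after GC adjustment as well (1.01 and 1.30). The share of all measured genes past 2-fold at both times was not taken, so the 9 cannot be set against it.

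Lower at both 24 and 48 h were 3 of the 101, again with no share of all measured genes to set beside them. BARD1, the obligate partner of BRCA1, had 60.0, 35.4, 56.6, 30.2, 16.3 and 28.4 CPM, lowest at 24 h. That was 0.272 times its 0 h level (0.239 to 0.309), a log2 change of -1.82, and -2.53 after GC adjustment. BRCA1 at the same time was at 0.24, GC-adjusted -0.15. ALKBH2, which reverses alkylation, went from 36.6 CPM to 14.3 and 14.8 (log2 changes -1.29 and -1.25), and POLL, a polymerase of end joining, from 84.2 to 37.7 and 39.1 (-1.14 and -1.09). After GC adjustment both fell short of 2-fold, ALKBH2 with -0.96 and -0.89 and POLL with -0.61 and -0.62.

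Genes of proliferation were set beside the repair genes because many repair genes are expressed in dividing cells. Of 35 such genes 1 was higher at 24 h and 13 lower (against 10.5% and 10.8% of all measured genes), with a median log2 change of -0.70, after medians of 0.54, 0.35 and 0.14 at 3, 6 and 12 h. At 48 h 4 were higher and 6 lower (against 15% and 7.33%) with a median of -0.30. After GC adjustment 1 was higher and 17 lower at 24 h (against 7.08% and 6.54% of all measured genes), with a median of -0.87. At 48 h 0 were higher and 3 lower (against 7.23% and 4.78%), with a median of -0.40. Their part in the changes of the repair genes was not tested.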

How the data were processed

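RNA of 6 LNCaP libraries, 1 per group, was sequenced on an Illumina GAIIx, per the labels' protocols. The submitters' processing notes name hg19 as the genome build, and strandedness, aligner and counting tool were not given in the sources used here. Per the file headers, the deposited table held a count of tags for each RefSeq transcript in each library, and beside it the same value as RPM, which the authors scaled to the reads of the library. The counts were used, and the listed transcripts held 86.9 to 89.5% of the denominators behind the deposited RPM.

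Of 18051 lines 50 exact repeats were dropped, and counts were added by symbol to 17990 genes. Symbols and chromosomes were matched through RefSeq on GRCh38.p14, and GC content and length (11552 of 11916 measured genes, all 47 repair genes) came from GENCODE v29 transcripts. CPM was taken over the listed transcripts, with a pseudocount of 1 CPM on the log2 scale. GC adjustment subtracted a lowess curve (span 0.3). Promoter windows came from RefSeq on GRCh38.p14. The tools were Python 3.11.15, pandas 2.3.3, scipy 1.17.1, statsmodels 0.14.6, R 4.3.3 and edgeR 4.0.16, the last used only for TMM factors. The counting of calls was checked on simulated data.

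The comparisons were each DHT library against 0 h and neighbouring times, with no test. Reads carried no stated molecular identifiers, and intervals and floors therefore describe counting error alone. Values in every library are given for repair genes past 2-fold at any usable time and, per pathway, for the 2 with the largest change at 24 h. Values of further repair genes were added after they were seen. Of the other repair genes, those past 2-fold in 1 direction at both 24 and 48 h are named, at most 5 per direction. The repair genes, the lists and the motifs were chosen with earlier results of these data known.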

Additional observations from a re-analysis of the deposited data

Results flagged for a closer look

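In 6 repair genes the change at 3 h had the opposite sign to that at a later time, with one past 2-fold and the other past 1.5-fold. ATM had a log2 change of -0.76 at 3 h and 1.68 at 6 h. ATR had -0.59 at 3 h and 1.80 at 48 h. TOPBP1 had -0.69 at 3 h and 1.33 at 48 h, and RAD50 -0.96 and 1.30. NBN had -0.60 at 3 h and 1.96 at 6 h, and XRCC4, with 8 counts at 3 h, had -0.68 there and 1.27 at 48 h. GC-adjusted, ATM had -0.46 and 0.68 at these times, ATR -0.32 and 1.01, TOPBP1 -0.46 and 0.71, RAD50 -0.74 and 0.70, NBN -0.25 and 0.79, and XRCC4 -0.32 and -0.0096. Of the later values that of ATR alone was then past 2-fold, and XRCC4 no longer had opposite signs. With 1 library per time the difference between the times was not tested.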

How the results depend on the processing

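Of the 37 changes past 2-fold, 34 were still past it in the same direction with median-of-ratios factors, 34 with TMM factors, 35 with the denominator of the deposited RPM, 37 with a pseudocount of 0.5 CPM, 37 without the count minimum and 8 after GC adjustment. With median-of-ratios and with TMM factors 5 repair genes were higher at 24 h, against 3. After GC adjustment 1 was higher at 6 h, 0 at 12 h, 1 at 24 h and 3 at 48 h, and 1 was lower at 48 h; XRCC4 changed sign at 6 h (-0.22) and 48 h (-0.0096), and the cause was not tested. The median log2 change at 48 h was 0.13 and became -0.13 with that adjustment. No paired analysis was possible because each time had 1 library, and no library could be left out for the same reason. At low levels depth was the limit: BRCA2, XRCC4, RAD54B, BLM and XRCC2, among others, had intervals of their ratios that spanned more than 2-fold at some or all times. RAD54B had 35 counts at 0 h.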
